A study of Mus musculus with 31 samples.

Results

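Hybrid males between the mouse strains PWD (PWD/PhJ) and B6 (C57Bl/6J) were examined in both directions of the cross: PWDfXB6m, with a PWD mother and a B6 father, and B6fXPWDm, with a B6 mother and a PWD father. Their meiotic break hotspots on the 19 autosomes were set against those of the inbred PWD and B6 parents. Breaks had been mapped in testis by DMC1 SSDS, a method that reads the single-stranded DNA on which the recombinase DMC1 sits after break ends are resected. The 2 hybrid lists held 29677 autosomal hotspots, 16759 in PWDfXB6m and 12918 in B6fXPWDm, out of 362234 in the 25 lists read. The PWD list held 13501 and the B6 list 18130. Each genotype had 1 library, so no value has a replicate error and no difference was tested; the labels give no age of the animals and do not say whether animals were pooled.

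A hybrid hotspot was matched to a parental one when their centres lay less than 400 bp apart, and was placed in 1 of 4 classes: in neither parent, in PWD only, in B6 only, or in both. Matched centres lay close together, with a median distance of 53 bp in PWDfXB6m and 58 bp in B6fXPWDm. For hotspots in neither parent the nearest parental centre lay 20342.5 bp away in PWDfXB6m and 20527.5 bp in B6fXPWDm, as medians. Near the limit, 207 PWDfXB6m and 165 B6fXPWDm hotspots matched at 300 to 400 bp, and 82 and 78 missed at 400 to 500 bp, in the same order. The strength of a hotspot is the deposited score divided by its sum over the autosomal hotspots of that list, because the scale of the score is not given in the sources used here. Read depth is unknown, so the longer PWDfXB6m list is not read as more breaks, and directions were compared at equal length, as the strongest 12918 hotspots of each. Intervals are exact 95% Clopper-Pearson intervals, normal approximations for differences, and cover counting error only.

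In mice most hotspots are placed by PRDM9, a zinc-finger protein that binds DNA in a sequence-specific way and trimethylates histone H3 on nearby nucleosomes. SPO11 then cuts the DNA, the ends are resected, and DMC1 loads on the single strands and takes part in the search for the homologous chromosome. The zinc fingers differ between strains, so that strains use largely different places, and a hotspot motif is worn away over generations in a strain whose own PRDM9 uses it. In a hybrid, each PRDM9 also meets the chromosomes of the other strain. Males from PWD mothers and B6 fathers are a classical case of hybrid sterility, to which Prdm9 and a locus on the X chromosome are known to contribute, whereas the reciprocal males are less affected.

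Some promoters that held the centre of a hybrid hotspot show the kinds of place concerned. They are 300-base windows from RefSeq (GRCm38.p6, the primary assembly of mm10), read 5′ to 3′ on the gene's strand, and capitals mark the 20 bases around the hotspot centre as listed in PWDfXB6m, or in B6fXPWDm for Prdm9. The first is the strongest hotspot in neither parent at a promoter, that of the non-coding RNA gene Gm35831 (minus strand, chr15:88430098-88430397). It ranked 82 in PWDfXB6m and 129 in B6fXPWDm, and its window holds 0 CpG.
Gm35831: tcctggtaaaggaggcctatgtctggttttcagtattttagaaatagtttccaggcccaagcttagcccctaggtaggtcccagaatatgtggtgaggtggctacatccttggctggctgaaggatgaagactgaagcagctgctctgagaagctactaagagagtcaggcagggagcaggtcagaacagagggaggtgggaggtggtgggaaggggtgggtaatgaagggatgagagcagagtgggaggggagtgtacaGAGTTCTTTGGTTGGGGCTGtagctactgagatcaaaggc
The second is the strongest PWD-only hotspot at a promoter, that of the non-coding RNA gene Gm51457 (plus strand, chr7:127076744-127077043). It ranked 45 in PWDfXB6m, 28 in B6fXPWDm and 1071 in PWD.
Gm51457: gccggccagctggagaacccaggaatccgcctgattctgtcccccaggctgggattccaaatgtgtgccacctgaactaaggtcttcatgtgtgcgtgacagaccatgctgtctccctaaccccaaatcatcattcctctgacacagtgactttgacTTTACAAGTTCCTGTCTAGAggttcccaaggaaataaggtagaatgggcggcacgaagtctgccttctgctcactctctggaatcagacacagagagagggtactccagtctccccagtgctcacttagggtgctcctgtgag
The third stands for the weak hotspots at gene promoters described further on. It lies at Ncam2 (plus strand, chr16:81200447-81200746), a cell adhesion gene of the nervous system, was in neither parent, and ranked 12929 in PWDfXB6m and 12805 in B6fXPWDm. Its window holds 41 CpG.
Ncam2: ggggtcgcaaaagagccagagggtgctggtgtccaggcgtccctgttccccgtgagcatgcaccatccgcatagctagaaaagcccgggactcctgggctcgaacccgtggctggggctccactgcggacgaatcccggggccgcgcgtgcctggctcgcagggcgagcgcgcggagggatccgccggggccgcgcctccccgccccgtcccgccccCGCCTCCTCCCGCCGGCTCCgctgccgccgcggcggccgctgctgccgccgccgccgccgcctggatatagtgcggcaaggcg
The last is the promoter of Prdm9 itself (minus strand, chr17:15563282-15563581), at a hotspot listed in B6fXPWDm and in PWD, and in neither PWDfXB6m nor B6.
Prdm9: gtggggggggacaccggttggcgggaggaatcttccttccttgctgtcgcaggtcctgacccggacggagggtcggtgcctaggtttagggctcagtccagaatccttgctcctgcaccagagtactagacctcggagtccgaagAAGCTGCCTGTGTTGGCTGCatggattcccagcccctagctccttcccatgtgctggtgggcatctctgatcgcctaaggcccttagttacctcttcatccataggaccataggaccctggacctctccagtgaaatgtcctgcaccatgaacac

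About 1 in 3 autosomal hotspots of the hybrids was in neither parent, and these held the largest part of the strength. In PWDfXB6m, 5350 hotspots were in neither parent (31.9%, 31.2 to 32.6), 6076 in PWD only (36.3%, 35.5 to 37.0), 5177 in B6 only (30.9%, 30.2 to 31.6) and 156 in both (0.931%). In B6fXPWDm, 3938 were in neither parent (30.5%, 29.7 to 31.3), 4514 in PWD only (34.9%, 34.1 to 35.8), 4333 in B6 only (33.5%, 32.7 to 34.4) and 133 in both (1.03%). The parents themselves shared 154 of the 13501 PWD hotspots (1.14%), so the class of hotspots in both is small in each hybrid. By strength, hotspots in neither parent held 37.2% of the autosomal total in PWDfXB6m and 36.5% in B6fXPWDm, more than the PWD-only hotspots (31.6% in PWDfXB6m, 30.4% in B6fXPWDm) or the B6-only ones (30.4% in PWDfXB6m, 32.3% in B6fXPWDm).

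The share in neither parent was high among the strongest hotspots. It was 43.3% of the strongest 1000 in PWDfXB6m and 45.1% in B6fXPWDm, 42.1% and 42.5% of the strongest 2000, and 36.6% and 36.3% of the strongest 5000, with PWDfXB6m first each time. It fell to a low of 24.3% at ranks 8001 to 10000 of PWDfXB6m and 25.4% at ranks 6001 to 8000 of B6fXPWDm. Then it climbed among the weakest, to 53.1% at ranks 16001 to 16759 of PWDfXB6m and 31.4% at ranks 12001 to 12918 of B6fXPWDm. The share in neither parent was thus high at the top of both lists. In PWDfXB6m it was higher still at the bottom, whereas the last ranks of B6fXPWDm were close to the 30.5% of that whole list.

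Several of the strongest hotspots of the hybrids lay on chromosome 19, the shortest autosome. The strongest in neither parent was at Pdlim1, a gene for a PDZ and LIM domain protein of the actin cytoskeleton, in PWDfXB6m (chromosome 19, 40220636 to 40225637), where it ranked 2 and held 0.102% of strength; in B6fXPWDm it ranked 8. In B6fXPWDm the strongest was 1024 bp from an end of Gfra1, which encodes a co-receptor for the growth factor GDNF (chromosome 19, 58232722 to 58236393), and ranked 1, against 7 in PWDfXB6m. Tmc1, a channel gene of inner ear hair cells (chromosome 19), and Ttc39c (chromosome 18) held the hotspots ranked 3 and 4 in both hybrids. All 4 were thus near the top in both directions and absent from both parents.

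Among hotspots of a single parent, high rank in the hybrid went with low rank in the parent in several cases. Pga5, a pepsinogen gene, held the strongest B6-only hotspot (chromosome 19, 10667140 to 10672503). It ranked 1 in PWDfXB6m and 2 in B6fXPWDm, against 924 in B6. Zdhhc14, a palmitoyltransferase gene on chromosome 17, held a B6-only hotspot ranked 21 in PWDfXB6m and 16 in B6fXPWDm, against 8592 of 18130 in B6. Near Sfrp2, a secreted modulator of Wnt signalling on chromosome 3, the ranks were 28 in PWDfXB6m, 31 in B6fXPWDm and 6371 in B6. The exception was at Ankfn1 on chromosome 11, which ranked 38 in PWDfXB6m and 12 in B6fXPWDm, and 3 in B6.

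The PWD-only hotspots showed the same range. At Cdc37l1, a gene for a partner of the chaperone HSP90 (chromosome 19), the hotspot ranked 8 in PWDfXB6m and 23 in B6fXPWDm, against 7490 of 13501 in PWD. At Ssh3, a gene for a phosphatase that activates the actin-severing protein cofilin (chromosome 19), it ranked 15 in PWDfXB6m and 58 in B6fXPWDm, against 3 in PWD. Near 2310061N02Rik (chromosome 16) the ranks were 17 in PWDfXB6m, 20 in B6fXPWDm and 390 in PWD, and near AI467606, at the Gm51457 promoter shown above, 45, 28 and 1071 in the same order. The strongest hotspots of both parents ranked lower than those of the other classes. One near Fosl2, a subunit gene of the transcription factor AP-1 (chromosome 5), ranked 323 in PWDfXB6m and 492 in B6fXPWDm, against 4121 in PWD and 14412 in B6. One in Zfand3 (chromosome 17) ranked 732 in PWDfXB6m and 801 in B6fXPWDm, against 256 in PWD and 4748 in B6. The class of both is small, and as a whole it was not weaker in PWDfXB6m. Its median strength percentile (higher is stronger) was 53.7 there, above the other classes (48.1 to 51.5). In B6fXPWDm it was 43.8, below the other classes (45.6 to 57.0).

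Over all members the relation between rank in the hybrid and rank in the parent was loose. Of the 249 PWD-only hotspots among the strongest 1000 of PWDfXB6m, 88 were among the strongest 1000 of PWD (35.3%), and 61 were in the weaker 50% of the PWD list (24.5%). Of the 312 B6-only hotspots among the same 1000, 84 were among the strongest 1000 of B6 (26.9%) and 81 in its weaker 50% (26.0%). In B6fXPWDm the counts were 80 and 56 of 233 for PWD and 81 and 89 of 311 for B6. Across matched hotspots, the Spearman correlation of strength between hybrid and PWD was 0.381 in PWDfXB6m (n = 6076) and 0.247 in B6fXPWDm (n = 4514), and with B6 it was 0.146 (n = 5177) and 0.0784 (n = 4333). Hotspots of 1 list share a library, so these are descriptions. Hotspots too weak to be listed in a parent count as absent from it, and their number was not measured.

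Seen from the parents, the hybrids kept nearly all of the strongest hotspots and few of the weak ones. At equal hybrid length, 94.7% of the strongest 1000 PWD hotspots were found in PWDfXB6m (93.1 to 96.0) and 92.3% in B6fXPWDm (90.5 to 93.9). For the strongest 1000 of B6 the shares were 93.9% in PWDfXB6m (92.2 to 95.3) and 93.4% in B6fXPWDm (91.7 to 94.9). Recovery then dropped faster for B6 than for PWD. Of PWD hotspots in the third of 10 equal strength classes, 59.5% were found in PWDfXB6m and 53.4% in B6fXPWDm, whereas of the B6 hotspots of the same class 27.4% and 29.6% were, in the same order. The B6 list is longer, so each of its classes holds 1813 hotspots against 1350 for PWD. Over the strongest 5000 of each parent, a matched number, PWDfXB6m held 70.5% of PWD (69.2 to 71.8) and 59.0% of B6 (57.6 to 60.4), and B6fXPWDm held 66.7% of PWD (65.4 to 68.0) and 60.3% of B6 (58.9 to 61.7).

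**Figure D1:**
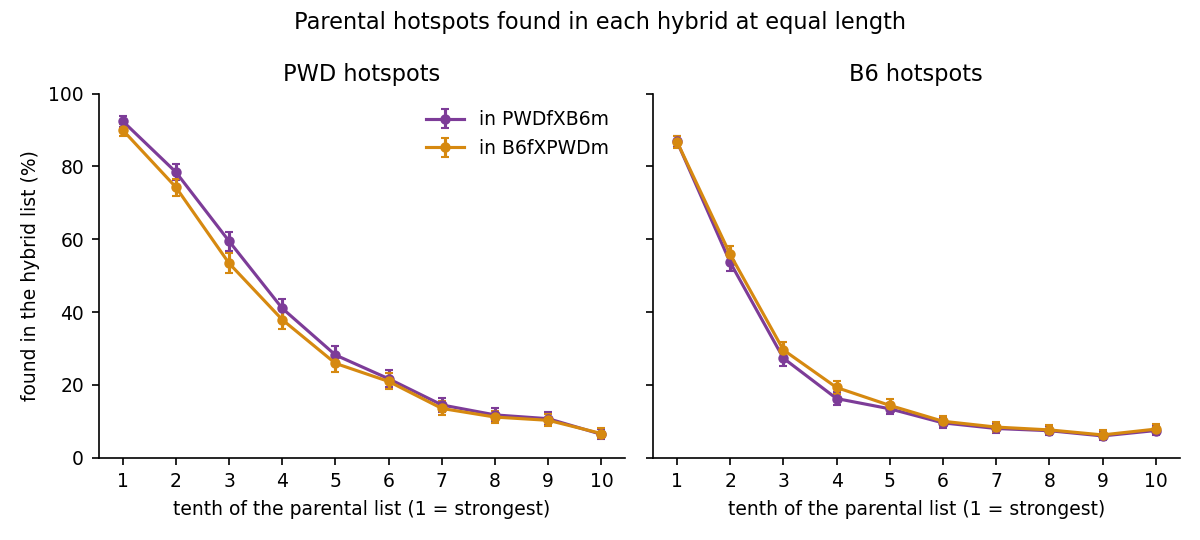
The share of parental hotspots found in each hybrid list at equal length (percent, y axis) is plotted by 10 equal classes of the parental list, strongest to weakest (x axis), for PWD on the left and B6 on the right, with 95% Clopper-Pearson bars. Recovery starts at 92.4% of PWD in PWDfXB6m and falls to 6.44%, and for PWD the points of PWDfXB6m lie above those of B6fXPWDm in the stronger classes.

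Nearly all strong parental hotspots were present in the hybrids, and a small part of them were also among the strongest there. That part was larger than in their own class as a whole, but in B6fXPWDm smaller than among hotspots in neither parent. Of the 948 PWD-only hotspots of PWDfXB6m whose match was among the strongest 1000 of PWD, 88 ranked in the first 1000 of PWDfXB6m (9.28%), and the median rank there was 4105. Of the 964 B6-only ones matched to the strongest 1000 of B6, 84 did (8.71%), with a median rank of 5151.5. Of all PWDfXB6m hotspots, 5.97% were in the first 1000, with 4.10% of the PWD-only ones, 6.03% of the B6-only ones and 8.09% of those in neither parent. In B6fXPWDm the shares were 8.82% of 907 for PWD and 8.73% of 928 for B6, beside 7.74% of all hotspots, 5.16% of PWD only and 7.18% of B6 only. Of the B6fXPWDm hotspots in neither parent, 11.5% were in the first 1000.

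The directions of the cross used largely the same autosomal places. Of the strongest 1000 hotspots of PWDfXB6m, 877 were among the strongest 1000 of B6fXPWDm (87.7%, 85.5 to 89.7), and of the strongest 5000, 4562 were (91.2%, 90.4 to 92.0). At equal length the share in neither parent was 29.8% in PWDfXB6m and 30.5% in B6fXPWDm, a difference of -0.70 percentage points whose interval included 0 (-1.82 to 0.41). PWD-only hotspots made up 37.1% in PWDfXB6m and 34.9% in B6fXPWDm, a difference of 2.12 points (0.95 to 3.29). B6-only hotspots made up 32.1% and 33.5%, in the same order, a difference of -1.45 points (-2.59 to -0.30). The intervals treat the lists as independent, although most of their hotspots are the same places. When an overlap of at least 50% of both intervals was required, the B6-only difference turned to 2.06 points and that of neither became -8.49; median hotspot width was 2054 bp in PWDfXB6m and 1872 bp in B6fXPWDm, and 2062 bp and 1744 bp in the PWD and B6 lists.

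Between the directions, the balance of the parents shifted by a small amount toward the strain of the mother. Among single-parent hotspots at equal length, the PWD part was 53.6% in PWDfXB6m (52.6 to 54.6, 4788 of 8934) and 51.0% in B6fXPWDm (49.98 to 52.1, 4514 of 8847). By strength it was 50.7% in PWDfXB6m and 48.4% in B6fXPWDm. It was higher in PWDfXB6m at each of the lengths examined, down to 44.4% against 42.8% of the strongest 1000, where the intervals overlap widely (40.2 to 48.6 and 38.6 to 47.1). In the full lists it was higher in PWDfXB6m on 19 of 19 autosomes, with chromosome values of 49.4% to 59.1% in PWDfXB6m and 45.6% to 58.0% in B6fXPWDm. The full PWDfXB6m list is longer, and the PWD part was higher at greater length in each hybrid. This count per autosome was not made at equal length. The chromosomes of 1 library are not independent samples of a cross, and a second library per direction was not analysed here.

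The places listed in a single direction carry the class differences above, because at equal length the shared places nearly cancel, and give them no separate support. At equal length, 1220 hotspots of PWDfXB6m were absent from B6fXPWDm, a background share of 9.44%, and 1220 of B6fXPWDm were absent from the strongest 12918 of PWDfXB6m, also 9.44%. In PWDfXB6m, 8.47% of the hotspots in neither parent were absent from the reciprocal list (7.61 to 9.40), against 12.3% of the PWD-only hotspots (11.4 to 13.3) and 7.12% of the B6-only ones (6.35 to 7.94). In B6fXPWDm the shares were 10.1% of those in neither parent (9.18 to 11.1), 7.35% of PWD only (6.61 to 8.16) and 11.1% of B6 only (10.2 to 12.1). Most of these places were weak. Only 10 of the 1220 were among the strongest 5000 of PWDfXB6m, and 20 of B6fXPWDm, and 321 of the 1220 of B6fXPWDm were absent from the full PWDfXB6m list.

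The strongest places of this kind, 3 in each direction, were named. In PWDfXB6m they were at Ttc3, a ubiquitin ligase gene (chromosome 16, 94461501 to 94466900, rank 1313, in neither parent), near Trim36, also a ubiquitin ligase gene (chromosome 18, rank 1384, in neither parent), and at the zinc-finger gene Zfp106 (chromosome 2, rank 1549), which ranked 114 in PWD. In B6fXPWDm they were near P4ha2, a collagen prolyl hydroxylase gene (chromosome 11, 54139849 to 54141340, rank 50, in neither parent), at the Prdm9 promoter (rank 465), and at Tfdp1, a gene for the dimerisation partner of E2F factors (chromosome 8, rank 1386), which ranked 1668 in B6. Their presence in the other lists did not always follow the parents. The Prdm9 hotspot was found in 6 of the 25 lists, with rank 31 in PWD, 132 in C3H, 135 in B6fXC3Hm, 321 in C3HfXCASTm and 2353 in CAST, and in none of the crosses with a PWD mother; C3HfXB6m, the reciprocal of B6fXC3Hm, lacked it. The P4ha2 place was found in 11 of 25, with rank 9 in 13R and 41 in MOL, and in neither PWD nor B6. The Ttc3 place was found in PWDfXB6m alone. The P4ha2 and Prdm9 places were narrow for their rank, at 1492 bp and 1610 bp. In the strongest 1000 of B6fXPWDm the median width was 3478 bp in neither parent and 3486 bp in PWD only. The reads at these places were not examined, so they may not be true hotspots. In PWDfXB6m the listed hotspot nearest Prdm9 lay 60 bp from an end of Pdcd2 (chromosome 17, 15526958 to 15527801), in neither parent and at rank 16594. In B6 the nearest was inside Fam120b (rank 1962), which ranked 6936 in PWDfXB6m and 6411 in B6fXPWDm.

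Strength differed little between directions at the strong hotspots. Over 12595 shared hotspots with scores above 0, 7 were more than 2-fold higher in PWDfXB6m (0.0556%) and 1025 more than 2-fold lower (8.14%). The excess of lower values lay among the weak hotspots. By rank in B6fXPWDm, the median log2 ratio of PWDfXB6m over B6fXPWDm was 0.08 at ranks 1 to 2000 and -0.50 at ranks 9001 to 12918, and by mean strength of both lists it was 0.08 in the strongest 25% and -0.64 in the weakest 25%. The values also depend on the list used for ranking. For hotspots in neither parent, the medians by rank in B6fXPWDm were 0.06 at ranks 1 to 2000, -0.46 at 5001 to 9000 and -0.49 at 9001 to 12918. By rank in PWDfXB6m, the numerator, they were 0.11 at ranks 1 to 2000, -0.35 at 5001 to 9000 and -0.77 at 9001 to 16759. The last range runs deeper in PWDfXB6m, so the part of the ranking alone is not shown by it. With scores divided by their median over shared hotspots instead, the counts were 74 higher and 279 lower. Over the 3168 hotspots in the strongest 25% of both lists, the medians were 0.04 for neither (SD 0.29, n = 1253), 0.10 for PWD only (SD 0.27, n = 885) and 0.02 for B6 only (SD 0.27, n = 1007). That set requires a high rank in both lists, which by itself limits the ratio. By rank in B6fXPWDm alone, 6 of 1995 shared hotspots at ranks 1 to 2000 were more than 2-fold lower in PWDfXB6m. The SDs are those of single hotspots, and the medians were not tested against each other.

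The extremes within those strongest hotspots were named by rule. Among the lowest were those near Snx19, a sorting nexin gene (chromosome 9, B6 only), and Sox17, an endoderm transcription factor gene (chromosome 1, in neither parent). Near Snx19 the hotspot held 0.0121% of strength in PWDfXB6m and 0.0291% in B6fXPWDm, a log2 ratio of -1.26; near Sox17 the log2 ratio was -1.16. The highest were at Atad2b (chromosome 12, PWD only), with 0.0271% in PWDfXB6m and 0.0139% in B6fXPWDm (log2 ratio 0.96), at Ssu72, an RNA polymerase II phosphatase gene (chromosome 4, in neither parent, 0.89), and at Pygb, the brain glycogen phosphorylase gene (chromosome 2, in neither parent, 0.79).

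Chromosomes differed in how much of the hybrid signal they carried. Chromosome 18 held 5.94% of autosomal strength in PWDfXB6m and 5.52% in B6fXPWDm, against 3.70% in PWD and 4.32% in B6. Relative to the mean of the parents this was 1.48 in PWDfXB6m and 1.38 in B6fXPWDm, the highest of the 19 autosomes, with chromosome 19 next (1.46 and 1.28). Chromosome 9 was lowest, at 0.730 in PWDfXB6m and 0.780 in B6fXPWDm. The ratio was higher on short autosomes, with a Spearman correlation with span of -0.633 in PWDfXB6m and -0.604 in B6fXPWDm (n = 19 chromosomes of the same libraries, a description). Counted as hotspots at equal length in all 4 lists, chromosome 18 was again highest, at 1.29 in PWDfXB6m and 1.24 in B6fXPWDm, and chromosome 6 lowest, at 0.889 and 0.876.

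**Figure D2:**
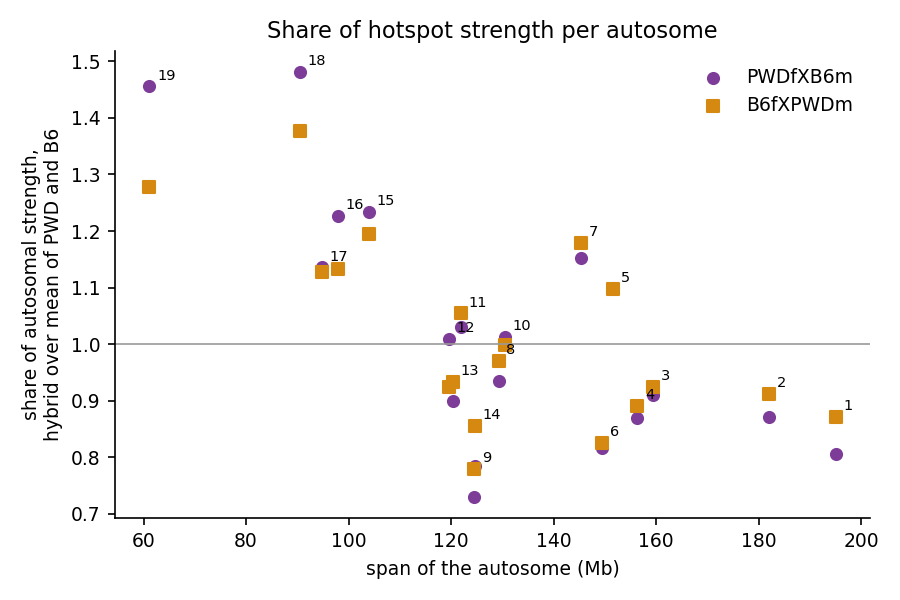
Each autosome's share of hotspot strength in a hybrid, divided by the mean of its shares in PWD and B6 (y axis, ratio), is plotted against the span of its hotspots in Mb (x axis), with circles for PWDfXB6m, squares for B6fXPWDm and chromosome numbers beside them. Chromosomes 18 and 19 lie highest, at 1.48 and 1.46 in PWDfXB6m, and chromosome 9 lowest.

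The share of strength in PWDfXB6m over that in B6fXPWDm ran between 0.917 on chromosome 14 and 1.14 on chromosome 19, with a Spearman correlation with span of -0.623. By number of hotspots at equal length the ratio ran between 0.962 on chromosome 14 and 1.04 on chromosome 19, with a correlation of -0.337. The share of hotspots in neither parent was highest on chromosome 19 (39.5% in PWDfXB6m, 34.5% in B6fXPWDm) and lowest on chromosome 14 (25.7% and 23.2%). In the full lists it was higher in PWDfXB6m on 16 of 19 autosomes, but at equal length on 5 of 19. Within 5 Mb of the distal end of the hotspots' span, hotspots of the strongest 5000 of PWDfXB6m had a median log2 ratio between directions of -0.17 (n = 131), against -0.0034 at 5 to 10 Mb, 0.13 at 10 to 20 Mb, 0.09 at 20 to 40 Mb and 0.01 farther in (n = 3209), and the distal median was below that of the rest of the chromosome on 10 of the 13 autosomes with at least 5 such hotspots.

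Hotspots in neither parent were also listed in other crosses, at shares near, above or below those of all hotspots, depending on the cross. The shares lay between those of the single-parent classes except in C3HfXCASTm. That cross held 18.8% of the PWDfXB6m hotspots in neither parent, beside 16.9% of all, 14.8% of PWD only and 17.6% of B6 only. In PWDfXC3Hm were 65.6% of the 3847 of PWDfXB6m at equal length and 64.8% of the 3938 of B6fXPWDm, beside 65.3% and 63.5% of all hotspots of these lists. For PWDfXB6m the PWD-only share there was 93.9% and the B6-only share 31.3%. In the cross of a MOL mother and a B6 father were 40.6% of those in neither parent of PWDfXB6m, beside 44.0% of all, 14.3% of PWD only and 81.4% of B6 only. In CASTfXB6m were 33.7%, beside 33.9% of all, and in PWDfX13Rm 33.9%, beside 29.2% of all. The cross B6fX13Rm held 0.806%, beside 11.8% of all PWDfXB6m hotspots, and C3HfXB6m held 7.64%, beside 31.3% of all. Inbred lists of other strains held 0.754% (13R) to 9.15% (CAST) of the PWDfXB6m hotspots in neither parent, beside 0.751% and 9.54% of all. MOL held 8.01%, beside 9.38% of all, and C3H 5.28%, beside 12.4% of all.

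The other crosses of each parent were then pooled, and the split depended on which were taken. It was made by class and not over all hotspots of a list, so the shares have no background beside them. The sets also hold unequal numbers of lists, which limits any comparison of the PWD and B6 sets. With CAST and MOL as partners in both sets (2 crosses of PWD, 4 of B6), 21.4% of the PWDfXB6m hotspots in neither parent were in no list of these sets, 24.4% in the PWD set only, 38.5% in the B6 set only and 15.7% in both. With PWDfX13Rm added to the PWD set, they were 17.0%, 28.8%, 36.1% and 18.1%, in the same order. With all other crosses of each parent, 4 of PWD and 8 of B6, they were 8.06%, 36.4%, 21.0% and 34.6%, so that the order of the PWD and B6 sets turned round. In B6fXPWDm the shares with CAST and MOL as partners were 22.0%, 24.2%, 38.0% and 15.7%, and with all other crosses 8.89%, 35.8%, 20.9% and 34.5%. In PWDfXB6m the hotspots in both sets were the strongest under each choice (median strength percentile 78.0 with CAST and MOL, 78.9 with all), and those in no set the weakest (45.7 and 39.6). The single-parent classes also had higher medians in both sets than in no set. With CAST and MOL they were 67.3 and 33.9 for PWD only, and 67.1 and 34.6 for B6 only. Of the single-parent hotspots of PWDfXB6m, 61.6% of PWD-only ones were in the PWD set only and 85.6% of B6-only ones in the B6 set only with CAST and MOL, and 68.6% and 66.1% with all other crosses. Among the strongest 5000 of each hybrid, the share in neither of its own parents was 36.6% in PWDfXB6m and 36.3% in B6fXPWDm, and was 32.4% in PWDfXC3Hm, 27.0% in B6fXCASTm, 25.7% in CASTfXB6m and 20.7% in PWDfX13Rm. This share was not counted in the remaining crosses, so it gives no order over all crosses. The parental lists also differ in length, with 13501 hotspots for PWD, 13742 for C3H, 13850 for 13R, 14282 for CAST and 18130 for B6. The hybrid lists share parents and were not tested against each other.

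Weak hotspots in neither parent lay often at the ends of genes in PWDfXB6m. A gene end was called when either end of a protein-coding gene lay within 1000 bp of the hotspot centre. At gene ends lay 12.6% of its hotspots in neither parent (11.8 to 13.6, 676 of 5350), against 3.93% of PWD-only (3.46 to 4.45) and 3.92% of B6-only hotspots (3.41 to 4.49). In B6fXPWDm it was 4.67% of those in neither parent (4.03 to 5.38), 3.52% of PWD only and 3.16% of B6 only. The parental lists had 3.80% in PWD and 3.14% in B6. Hotspots of both parents lay there most often in each hybrid, 23.1% in PWDfXB6m (16.7 to 30.5, 36 of 156) and 24.1% in B6fXPWDm (17.1 to 32.2, 32 of 133).

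The excess of PWDfXB6m lay in the ranks that B6fXPWDm lacks. Beyond rank 12918, 31.7% of its hotspots in neither parent were at gene ends (29.4 to 34.2, 477 of 1503), and at ranks 16001 to 16759 it was 44.9% (39.99 to 49.9, 181 of 403). Within the strongest 12918 the share was 5.17% in PWDfXB6m (4.49 to 5.92) and 4.67% in B6fXPWDm (4.03 to 5.38), and the intervals overlapped. The last ranks of B6fXPWDm moved the same way, with 14.9% at ranks 12001 to 12918 (11.02 to 19.6), against 15.1% at ranks 12001 to 14000 of PWDfXB6m (12.3 to 18.3). The single-parent classes rose there too, to 8.53% of PWD only (5.79 to 12.0) and 8.86% of B6 only (5.76 to 12.9) in that last bin of B6fXPWDm. At ranks 16001 to 16759 of PWDfXB6m they were 5.29% and 5.52%, in the same order. List length, depth and direction cannot be told apart in the excess of PWDfXB6m.

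**Figure D3:**
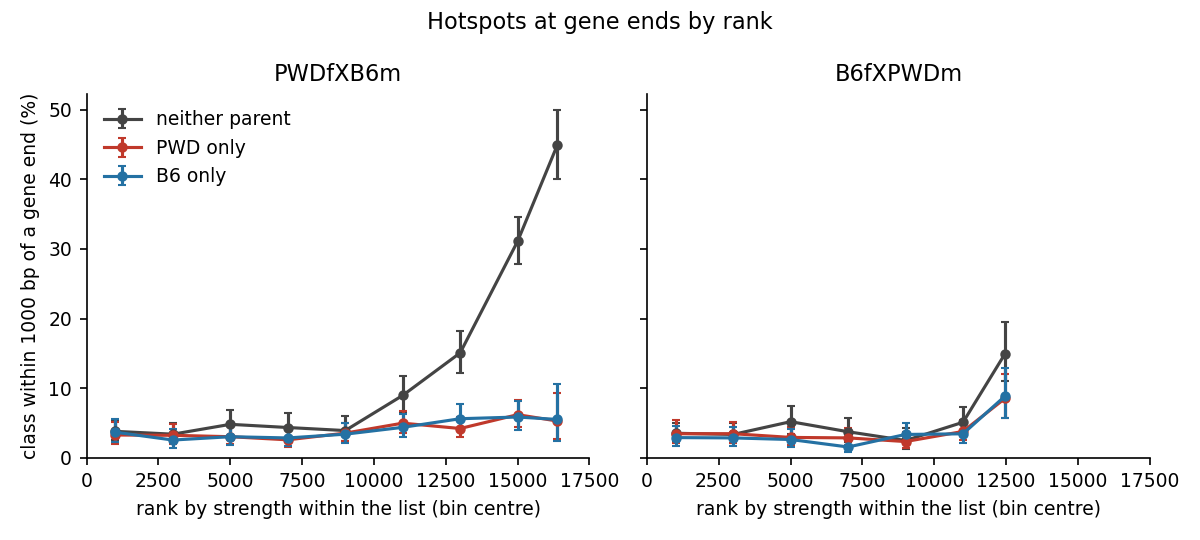
The share of hotspots in neither parent, in PWD only and in B6 only that lie within 1000 bp of a gene end (percent, y axis) is plotted against rank by strength (x axis, centres of bins of up to 2000 hotspots), for PWDfXB6m on the left and B6fXPWDm on the right, with 95% Clopper-Pearson bars. The 3 classes drawn stay at or below 5.19% up to rank 10000, and the class in neither parent then climbs to 44.9% in PWDfXB6m and 14.9% in B6fXPWDm. In the last bin of B6fXPWDm the single-parent classes also rise, to 8.53% (PWD only) and 8.86% (B6 only).

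The promoters among these places were rich in CpG, the dinucleotide of CpG islands. In PWDfXB6m, 108 hotspots in neither parent had their centre inside a RefSeq promoter window, and the windows had a median GC content of 64.5% and 28 CpG per 300 bases, as in the Ncam2 sequence above. Over all 31365 autosomal promoter windows the medians were 53% and 7 CpG. For the 31 PWD-only and 28 B6-only hotspots the medians were 6 and 5 CpG, in that order. The few hotspots of both parents were richer still, with a median of 34.5 CpG over 8 hotspots. In B6fXPWDm, 19 hotspots in neither parent lay in promoter windows, with a median of 24 CpG, and 4 of both parents did, with a median of 36 CpG. Counted by gene, 1281 of 20661 protein-coding genes had a hotspot at an end in PWDfXB6m (6.20%) and 555 in B6fXPWDm (2.69%), against 551 in PWD (2.67%) and 607 in B6 (2.94%).

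A few genes of meiotic recombination itself had a hotspot at an end. Of 34 such genes in 3 lists, 4 did in PWDfXB6m (11.8%, 3.30 to 27.5) and 3 in B6fXPWDm (8.82%, 1.86 to 23.7), against 3 in PWD (8.82%) and 2 in B6 (5.88%). These shares lie above those of all genes, and the intervals include the shares of all genes in each list. Of 7 genes for PRDM9 and its partners and readers, 1 had a hotspot at an end in PWDfXB6m and 1 in B6fXPWDm, against 1 in PWD and 0 in B6. Hells, a chromatin remodeller that works with PRDM9, had one at rank 10153 of PWDfXB6m. Of 13 genes for break formation and strand exchange, 1 did in each hybrid, against 0 in PWD and 1 in B6; it was Hsf2bp, a partner of BRCA2, at rank 768 in PWDfXB6m, 652 in B6fXPWDm and 395 in B6. Of 14 genes of the chromosome axis and synaptonemal complex, 2 did in PWDfXB6m and 1 in B6fXPWDm, against 2 in PWD and 1 in B6. Rec8, a meiotic cohesin gene, had ranks 10695 in PWDfXB6m, 11067 in B6fXPWDm and 1639 in PWD, and Syce1, a central element gene, had a hotspot in neither parent at rank 14799 of PWDfXB6m.

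The X chromosome, which a male takes from his mother, behaved unlike the autosomes between directions. The hybrids had 758 X hotspots in PWDfXB6m and 683 in B6fXPWDm, against 990 in PWD and 1246 in B6. Of the PWDfXB6m ones, 96 were in neither parent (12.7%, 10.4 to 15.2), 298 in PWD only, 277 in B6 only and 87 in both. In B6fXPWDm, 93 were in neither parent (13.6%, 11.1 to 16.4), 263 in PWD only, 251 in B6 only and 76 in both. The parental X lists shared more places than the autosomes, 101 of 990 PWD hotspots (10.2%, 8.39 to 12.3).

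X hotspots of the 2 directions overlapped less than autosomal ones, by an amount that depended on class and list. Of the X hotspots of PWDfXB6m, 294 were absent from B6fXPWDm (38.8%), and of those of B6fXPWDm, 219 were absent from PWDfXB6m (32.1%). On the autosomes, 2.48% of B6fXPWDm hotspots were absent from the full PWDfXB6m list. For PWDfXB6m the full autosomal lists were compared by class. Of its PWD-only hotspots, 69.1% on the X and 73.5% on the autosomes were found in B6fXPWDm. Of its B6-only hotspots, 66.8% on the X and 81.6% on the autosomes were. The difference was greatest for hotspots in neither parent. On the X, 8 of 96 of PWDfXB6m were found in B6fXPWDm (8.33%, 3.67 to 15.8), and 12 of 93 of B6fXPWDm in PWDfXB6m (12.9%, 6.85 to 21.5). On the autosomes the shares in the full lists were 70.5% of 5350 (69.3 to 71.8) and 96.4% of 3938 (95.8 to 97.0), in the same order, so the intervals of X and autosomes lay far apart.

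X hotspots of the parent that did not give the X carried the larger part of its strength in each hybrid. In PWDfXB6m, whose X is PWD, PWD-only hotspots held 33.8% of X strength and B6-only hotspots 42.0%. In B6fXPWDm, whose X is B6, PWD-only hotspots held 45.0% and B6-only hotspots 33.6%. Hotspots in neither parent held 16.3% in PWDfXB6m and 16.5% in B6fXPWDm. Presence of the strongest parental places ran the other way. All of the strongest 100 X hotspots of PWD were found in PWDfXB6m (96.4 to 100) and 81 in B6fXPWDm (71.9 to 88.2), and of the strongest 100 of B6, 90 were found in PWDfXB6m (82.4 to 95.1) and 99 in B6fXPWDm (94.6 to 99.97).

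**Figure D4:**
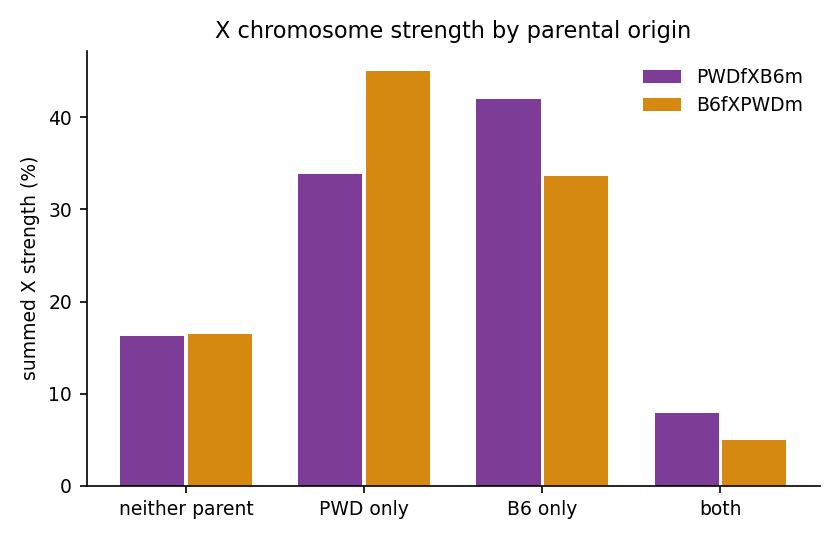
Bars give the percent of summed X strength (y axis) held by hotspots of each parental class (x axis), for PWDfXB6m and B6fXPWDm. PWD-only hotspots hold 33.8% in PWDfXB6m and 45.0% in B6fXPWDm, and B6-only hotspots 42.0% and 33.6%.

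Single X hotspots showed both patterns. In neither parent, the strongest of PWDfXB6m lay near Esx1, a homeobox gene of placenta and testis (137163771 to 137169200), at X rank 7, and that of B6fXPWDm near Gm36049 (161372187 to 161377116), at X rank 1; each was absent from the reciprocal list. The strongest PWD-only hotspot of PWDfXB6m lay in Amer1, a regulator of Wnt signalling, at X rank 1, against 33 in B6fXPWDm and 10 in PWD. That of B6fXPWDm lay in Gpc3, a glypican gene, at X rank 3, against 175 in PWDfXB6m and 72 in PWD. Among B6-only hotspots, one in Araf, a RAF kinase gene, ranked 3 in PWDfXB6m, 595 in B6fXPWDm and 200 in B6, and one in Stag2, a cohesin subunit gene, ranked 30 in PWDfXB6m, 6 in B6fXPWDm and 2 in B6.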

How the data were processed

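DMC1 SSDS libraries from mouse testis were analysed as the hotspot lists that the authors deposited, 1 per genotype. The submitters' processing notes name mm10 as build, and CASAVA 1.8 and MACS2 2.0.10 among the tools; the filters, peak thresholds and any pooling were not given in the sources used here. Each list gives a chromosome, start, end and strength score per hotspot. The scaling of the deposited score was likewise not given, and a few scores are at or below 0 (6 in PWDfXB6m, 1 in B6fXPWDm, 7 in PWD and 3 in B6). Only ranks, percentiles and shares within a list were taken from it, a share being a part of the sum over autosomes. Deposited starts were taken as counted from 0 and are printed 1-based.

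Of the 31 samples, 26 are DMC1 libraries, and 25 lists were read. Matching, classes, exact intervals and correlations were computed in Python 3.11.15 with numpy 2.4.6, pandas 2.3.3 and scipy 1.17.1. Only matching and classes were checked on simulated lists. Their made matches lay well inside the matching distance and their other places outside it, so matches near the limit were not checked. With 1 library per genotype no test was made. Gene positions and promoter windows (250 bases before to 50 after the start) came from RefSeq tables of GRCm38.p6. The gene table gives no strand, so either end of a gene counted as a gene end. Hotspots are named by the protein-coding gene that contains their centre or, failing that, has the nearest end.

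Named hotspots are the 3 strongest of each class and direction, the 3 strongest listed in 1 direction, the 3 highest and 3 lowest strength ratios within the strongest 25% of both lists, and the hotspot nearest Prdm9 in each list; the X hotspots named, the promoters shown and the pooled crosses were chosen after values were seen. Of the hotspots that the rule names, 2 are not reported here. The members and lists were chosen with earlier results of these data known. Alternatives covered the matching rule, list length, strength in place of number, the fold, the gene-end window and the chromosome ends. Read depth is unknown. Hotspot sequences and motifs were not analysed here, because no genome sequence was used.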

Additional observations from a re-analysis of the deposited data

How the results depend on the processing

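No paired analysis was possible because each genotype had 1 library. The matching rule set the level of most shares. The share in neither parent, 31.9% in PWDfXB6m and 30.5% in B6fXPWDm, was 36.5% and 35.9% with centres under 200 bp apart, 30.4% and 28.9% under 1000 bp, 29.1% and 27.7% with any overlap, 41.1% and 44.4% with overlap of at least 50% of both intervals, 43.2% and 45.3% for the strongest 50% of every list, 34.0% and 32.7% with parental lists of equal length, and 37.2% and 36.5% by strength, PWDfXB6m first; with hybrid lists of equal length it was 29.8% in PWDfXB6m. Of the differences between directions, that of neither was -2.45 points under 200 bp, -8.49 with 50% overlap and 0.34 in the strongest 5000, where it reversed. That of PWD only was 3.34 under 200 bp and 6.43 with 50% overlap, and kept its sign in all 8 alternatives. That of B6 only reversed to 2.06 with 50% overlap, and that of both was -0.0077 under 1000 bp, a reversal, and 0.29 with any overlap. The PWD part of single-parent hotspots stayed higher in PWDfXB6m: 55.5% and 52.3% with 50% overlap, 50.7% and 48.4% by strength, and 55.5% and 53.0% with parental lists of equal length. Recovery moved with the number of parental hotspots: for the strongest 2000 and 10000 of PWD it was 89.1% and 45.9% in PWDfXB6m and 86.3% and 43.2% in B6fXPWDm, and for B6 85.4% and 36.7% in PWDfXB6m and 86.1% and 38.3% in B6fXPWDm. The B6fXPWDm hotspots absent from the other direction numbered 321 against its full list. Shared hotspots past the fold numbered 138 higher and 3398 lower at 1.5-fold, 0 and 84 at 3-fold, and 74 and 279 after scaling by the median. Gene-end shares of hotspots in neither parent were 8.13% in PWDfXB6m and 2.54% in B6fXPWDm within 500 bp, and 18.3% and 10.1% within 2500 bp; at equal length, added after seeing the data, that of PWDfXB6m was 5.17%. The choice of pooled crosses and the ranking behind the strength trend, also varied after seeing the data, are given beside those results. Apart from the lengths, folds and windows that set a value by construction, the cause was not tested. Of the 84 alternative values, 35 kept the direction and stayed within the counting interval, the chromosome SD or 1.5 times the count, 46 moved and 3 reversed. Depth is unknown, which limits any reading of the weak ends of the lists.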
